A study of Sus scrofa with 8 samples.

Results

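Lysosome genes are the genes whose products make up, acidify or supply the lysosome, the compartment in which cells break down proteins, sugars, lipids and nucleic acids. Soluble acid hydrolases are made in the endoplasmic reticulum, tagged with mannose 6-phosphate in the Golgi and carried to endosomes in vesicles coated with clathrin and adaptor complexes. Heavily glycosylated membrane proteins line the lysosome, and transporters export the breakdown products. In the lung, lysosome-related lamellar bodies of alveolar type II cells store surfactant, and alveolar macrophages are rich in lysosomes.

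The genes were taken from the pathway column of the deposited expression table: rows with the KEGG entry Lysosome, without those that also carry the entry Oxidative phosphorylation. Of 25578 genes, 119 carried the Lysosome entry. The 10 that also carried the other entry are proton pump subunits and were set aside, 2 more (NAPSA and IGF2R) were left out by name, and 107 genes remained. They comprise 15 proteases, 20 glycosidases, 8 genes of the sulfatase group (7 sulfatases and SUMF1, which activates them in the endoplasmic reticulum), 6 lipid hydrolases, 4 phosphatases or nucleases, 5 activators or soluble helpers, 10 major membrane proteins, 8 transporters, channels or membrane enzymes, 25 clathrin or adaptor subunits, 5 sorting or tagging proteins and 1 gene with no name in the table. The first 5 groups, 53 genes, are called hydrolases here. LITAF and AP3S1 had no symbol and were named from the table's description of the gene.

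The study followed pig (Sus scrofa) cells along a protocol toward lung, sampling pluripotent stem cells (PSC), then definitive endoderm (DE), then the anterior foregut endoderm stage (AFE) and last the organoids of lung progenitors (LPO). Messenger RNA was sequenced in 8 libraries, 2 from each of the 4 stages. The labels give no cell line, culture time, animal or inducing agent, and they do not say whether libraries of a stage are from separate cultures. The p-values therefore rest on the spread between the libraries at hand, which may be technical. Consecutive comparisons share the libraries of a stage.

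Total counts ran from 36004372 to 67566269 per library. Levels are given as CPM, counts scaled to library size by the TMM method, unless FPKM is stated. The summed level of 5 pluripotency markers was 30.4 and 31.0 CPM in LPO, against 4510 and 5210 CPM in PSC. Most of the PSC sum was POU5F1, with 4453 and 5156 CPM. SOX2 went the other way and made up most of the LPO sum, with 30.3 and 30.7 CPM, against 6.10 and 4.43 CPM in PSC. LIN28A was lower in LPO than in PSC but had 41.4 and 29.5 CPM in DE, against 3.97 and 5.23 CPM in PSC. The 5 definitive endoderm markers summed to 705 and 673 CPM in DE, against 41.3 and 41.1 CPM in PSC. GSC alone of the 5 was lower, with 5.15 and 2.89 CPM in DE, against 18.8 and 15.8 CPM in PSC. The 5 anterior foregut markers were mixed. Their sum was 119 and 108 CPM in AFE, against 372 and 361 CPM in DE, carried by FOXA2 and HHEX, which were lower in AFE, while SOX2, TBX1 and PAX9 were higher in AFE than in DE. The summed level of 5 lung progenitor markers was 8.24 and 7.87 CPM in PSC, 11.3 and 10.9 CPM in DE, 60.8 and 54.8 CPM in AFE and 218 and 221 CPM in LPO. The marker gene named CPM went the other way after DE. Its level was 5.67 and 5.66 CPM in DE, 2.33 and 1.57 CPM in AFE and 0.362 and 0.352 CPM in LPO. The LPO libraries also held 4918 and 5024 CPM over 6 fibroblast markers, all 6 of them detected, against 256 and 256 CPM in AFE. Over 4 epithelial markers they held 3342 and 3478 CPM, against 24303 and 24954 CPM in AFE, a sum made up mostly of KRT8 and KRT18. EPCAM had 279 and 291 CPM in LPO, against 526 and 474 CPM in AFE, and CDH1 went the other way, with 488 and 493 CPM in LPO, against 393 and 383 CPM in AFE. The part of these cell types in the results on LPO was not tested, and in bulk RNA fewer cells of a type and less RNA per cell cannot be told apart.

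A gene was called when its adjusted p was under 0.05 in edgeR's quasi-likelihood test with Benjamini-Hochberg adjustment over the 19346 genes tested. Of the 107 lysosome genes, 105 were tested, and PSAPL1 and SLC11A1 were too low. Between the 4 stages, 95 of the 105 were called, where the background share over all genes was 79.2%. The 10 that were not called were AP3B2, AP3M1, AP3M2, AP4B1, AP4E1, GALC, HYAL4, PLA2G15, ACP5 and CTSW. The highest stage mean exceeded the lowest by a median of 3.23-fold over the 101 genes with every stage mean above 0, with 7 genes under 1.5-fold and 12 over 10-fold. In FPKM, fragments scaled for gene length and library size, 85 genes reached 5 in at least 1 stage and 59 did so in every stage. AP3B2, CTSW, HYAL4, PSAPL1 and SLC11A1 had no library over 0.5 FPKM.

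Lysosome genes were seldom at their highest in PSC. Of the 95 genes called between stages, 8 (8.42%) had their highest mean CPM in the stem cells, 20 (21.1%) at the DE stage, 34 (35.8%) at the AFE stage and 33 (34.7%) in the organoids. Over all 15323 genes called between stages, the PSC share was 26.7%, the DE share 16.8%, the AFE share 17.6% and the LPO share 38.9%. The split between AFE and LPO depended on the scaling. With total counts only, the number of lysosome genes with their highest mean was 8 for PSC, 17 for DE, 21 for AFE and 49 for LPO. The shares over all genes were then 25.2% for PSC, 14.3% for DE, 13.7% for AFE and 46.9% for LPO. The 8 genes highest in PSC included the protease CTSL, the membrane protein CD63, the nuclease DNASE2 and the mannose 6-phosphate receptor M6PR.

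As a share of all FPKM in a library, the 107 genes held 0.518% and 0.512% in PSC, 0.915% and 0.895% in DE, 0.734% and 0.729% in AFE and 1.08% and 1.08% in LPO. Part of the DE share came from NPC2 (mean 1060 FPKM), and part of the AFE and LPO shares from CTSV (means 729 and 512 FPKM). Without these 2 genes the share was 0.446% and 0.439% in PSC, 0.584% and 0.586% in DE, 0.556% and 0.551% in AFE and 0.870% and 0.876% in LPO. The FPKM summed over all genes was lower in LPO (345563 and 347824) than in the other stages (439098 to 467008), so the LPO shares have a smaller denominator. Hydrolases without CTSV summed to 1344 and 1372 FPKM in LPO, against 665 and 638 FPKM in PSC, a difference that does not use that denominator. FPKM was not scaled by TMM, however, and the size of this difference depends on the scaling. With total counts in place of TMM, the median log2 fold change over all genes in LPO against PSC was 0.91 in place of 0.49.

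**Figure D1:**
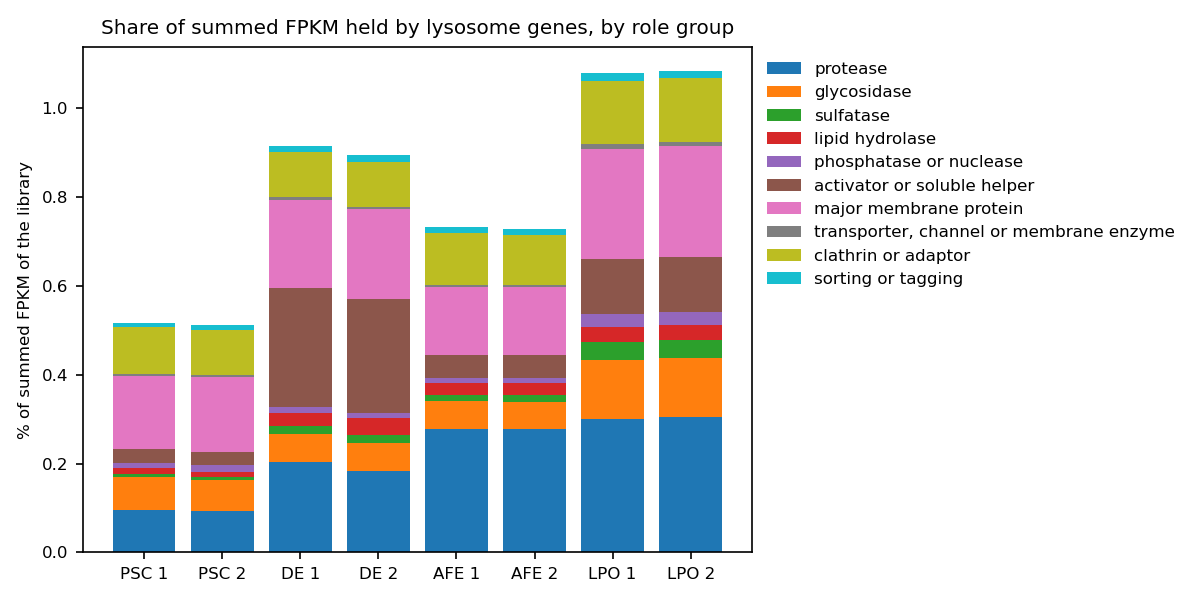
Stacked bars give the share (% of summed FPKM) of each library held by the lysosome genes, coloured by role group, in the 2 libraries of each stage. The total lies between 0.512% and 0.518% in PSC, rises to 0.915% and 0.895% in DE with the activator and helper group (NPC2), and reaches 1.08% in both LPO libraries.

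In DE against PSC, lysosome genes moved mostly upward, among them NPC2, IDUA, GAA, GALNS, CTSD, LAMP1 and CTSB. Of 105 genes tested, 60 rose, against a background of 30.8% of all genes, and 11 fell, against a background of 23.0%. The median log2 fold change was 0.58, against 0.083 over all genes. Among hydrolases 34 of 53 rose and 3 fell, CTSC among them. Among membrane proteins 11 of 17 rose and 0 fell at this threshold. Among clathrin, adaptor and sorting genes 12 of 30 rose and 8 fell. With a change of at least 2-fold, 33 rose (background 22.8%) and 3 fell (background 11.6%), and for 87 of 105 the DE and PSC libraries did not overlap (background 72.7%). The lower calls were few and moved with the settings: 17 genes were lower with DESeq2's size factors and 20 with DESeq2's Wald test. The median over all genes moved too, from 0.083 to 0 with DESeq2's size factors. The background share of lower calls was not computed for these settings. Fewer lysosome genes were lower without replicate 1 of DE.

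In AFE against DE, the changes ran in both directions. Of 105 genes, 33 rose (background 17.9%) and 22 fell (background 17.4%), with a median log2 fold change of 0.057 against 0 over all genes. Proteases had 8 higher and 3 lower of 15, and membrane proteins had 4 higher and 6 lower of 17. NPC2 fell by the largest factor among the genes that fell, and IDUA rose by the largest factor among those that reached 5 FPKM. With a change of at least 2-fold, 10 rose (background 9.26%) and 8 fell (background 8.35%), and for 81 of 105 the stages did not overlap (background 69.0%). Without replicate 2 of AFE, fewer than 22 genes were lower, and the background share was not computed for that fit.

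In LPO against AFE, 33 genes rose (background 30.2%) and 42 were called lower (background 29.6%), with a median log2 fold change of −0.21 against 0.092 over all genes. With a change of at least 2-fold, 17 rose (background 22.7%) and 21 were called lower (background 20.6%), and for 93 of 105 the stages did not overlap (background 84.4%). The split between higher and lower calls depended on how libraries were scaled. With total counts only, 46 genes were higher and 23 lower, the background shares were 40.1% and 21.7%, and the median over all genes moved by 0.48 on the log2 scale. All 33 higher calls held under DESeq2's size factors, total counts and the authors' FPKM, whereas 23 of the 42 lower calls did. The 23 genes comprised 9 of 18 hydrolases, 1 of 7 membrane proteins (CD63), the activator GM2A and 12 of 15 clathrin, adaptor and sorting genes. Only these 23 are described as having fallen here.

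Between the ends of the protocol, LPO against PSC, 63 genes were called higher (background 41.5%) and 22 lower (background 28.8%). The median log2 fold change was 0.82, against 0.49 over all genes. With total counts only, 72 genes were higher (background then 48.5%) and 15 lower (background then 23.5%). Hydrolases had 37 of 53 higher and 8 lower, with a median of 1.10. Membrane proteins had 11 of 17 higher and 4 lower, with a median of 1.36. Clathrin, adaptor and sorting genes had 11 of 30 higher and 10 lower, with a median of 0.10. With a change of at least 2-fold, 43 were higher (background 34.4%) and 14 lower (background 22.0%), and for 99 of 105 the stages did not overlap (background 86.2%). Of the calls at the adjusted p alone, 60 of 63 higher and 15 of 22 lower held under every scaling tried.

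**Figure D2:**
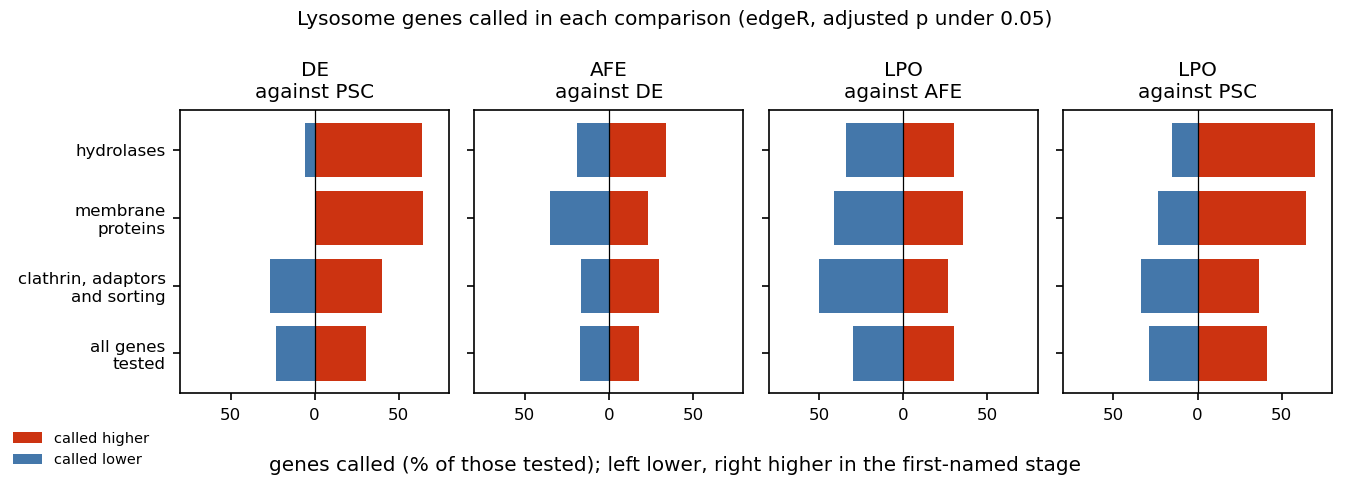
Bars give the share (%) of tested genes called higher (right, red) and lower (left, blue) in the first-named stage, for hydrolases, membrane proteins, trafficking genes (clathrin, adaptors and sorting) and all genes tested, in 4 comparisons. In DE against PSC the membrane proteins show no bar to the left. In LPO against AFE the trafficking genes have 15 lower (background 29.6%) and 8 higher (background 30.2%) of 30.

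Cathepsin D (CTSD), an aspartic protease and one of the most abundant in lysosomes, had 54.3 and 55.3 CPM in PSC, 447 and 439 CPM in DE, 415 and 444 CPM in AFE and 216 and 224 CPM in LPO. The PSC libraries lay far below all others, DE and AFE overlapped, and LPO lay between. CTSD rose 8.08-fold in DE against PSC (log2 fold change 3.01 ± 0.066 SE, edgeR adjusted p = 1.0e-07) and fell 1.95-fold in LPO against AFE (edgeR adjusted p = 4.7e-06). Cathepsin B (CTSB), a cysteine protease, had 41.2 and 25.3 CPM in PSC, 206 and 207 CPM in DE, 391 and 340 CPM in AFE and 277 and 321 CPM in LPO. It rose 6.19-fold in DE against PSC (edgeR adjusted p = 2.4e-05) and 1.77-fold in AFE against DE (edgeR adjusted p = 0.014), and LPO and AFE did not differ by the test (edgeR adjusted p = 0.24). The call in AFE against DE was lost without DE replicate 1 or 2 (log2 fold change 0.82 each) or AFE replicate 1 (0.72). CTSB lies opposite FDFT1, whose count was 191% of its own.

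Cathepsin K (CTSK), a collagen-degrading cysteine protease best known from osteoclasts, had 23.7 and 19.7 CPM in PSC, 54.1 and 50.0 CPM in DE, 42.2 and 36.8 CPM in AFE and 120 and 123 CPM in LPO. Both LPO libraries lay above every other library. CTSK rose 3.07-fold in LPO against AFE (log2 fold change 1.62 ± 0.12 SE, edgeR adjusted p = 9.3e-06). Of 4 osteoclast markers, NFATC1 had 7.39 and 8.47 CPM in LPO, against 1.42 and 0.834 CPM in AFE. OSCAR, CALCR and OCSTAMP had at most 0.101 CPM in LPO and at most 0.0326 CPM in AFE. The fibroblast markers were higher in the same LPO libraries, as given above. The part of osteoclasts or fibroblasts in the CTSK result was not tested.

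The cysteine proteases CTSL and CTSV moved in opposite directions in AFE against DE, and both fell in LPO against AFE. CTSL had 39.8 and 50.7 CPM in PSC, 39.8 and 46.9 CPM in DE, 16.3 and 17.0 CPM in AFE and 4.29 and 4.04 CPM in LPO. CTSV, the member with the highest mean FPKM, had 678 and 717 CPM in PSC, 1099 and 902 CPM in DE, 2162 and 2170 CPM in AFE and 1075 and 1085 CPM in LPO. PSC and DE overlapped for CTSL, after which each stage lay below the one before it, whereas AFE stood above all other stages for CTSV. CTSL fell 2.61-fold in AFE against DE and 3.99-fold in LPO against AFE (edgeR adjusted p = 2.9e-04 and 1.3e-05), and CTSV rose 2.17-fold in AFE against DE and fell 2.01-fold in LPO against AFE (edgeR adjusted p = 6.7e-05 and 2.8e-05). The genes are related copies, and how reads were divided between them is uncertain.

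The other proteases differed in the stage at which they stood highest. CTSZ, a carboxypeptidase, had 38.8 and 27.8 CPM in PSC, 106 and 93.9 CPM in DE, 136 and 132 CPM in AFE and 15.3 and 17.4 CPM in LPO, an 8.19-fold fall in LPO against AFE (edgeR adjusted p = 2.3e-06). Its LPO libraries lay below all others, and it overlaps NELFCD on the other strand, whose count was 224% of its own. CTSF, a cysteine protease, rose 5.53-fold in DE against PSC (edgeR adjusted p = 3.2e-06), and CTSH, an aminopeptidase that takes part in the processing of surfactant protein B, rose 2.58-fold in AFE against DE (edgeR adjusted p = 8.0e-06). CTSH had 184 and 175 CPM in LPO, against 235 and 235 CPM in AFE, a difference that reversed in sign with total counts. CTSC, the activator of immune serine proteases, was among the few that fell in DE against PSC (1.95-fold, edgeR adjusted p = 3.6e-05), and it rose 1.5-fold in LPO against AFE (edgeR adjusted p = 4.4e-04). CTSO rose 3.50-fold in AFE against DE (edgeR adjusted p = 3.4e-04).

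Of the remaining proteases, the tripeptidyl peptidase TPP1 rose 1.49-fold in AFE against DE (edgeR adjusted p = 0.0012). The asparaginyl endopeptidase LGMN and CTSA, which protects the enzymes GLB1 and NEU1, were 1.51-fold and 1.75-fold higher in LPO against PSC (edgeR adjusted p = 0.0021 and 0.0020). CTSS, a cysteine protease of antigen-presenting cells, did not exceed 5.20 CPM in any library.

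**Figure D3:**
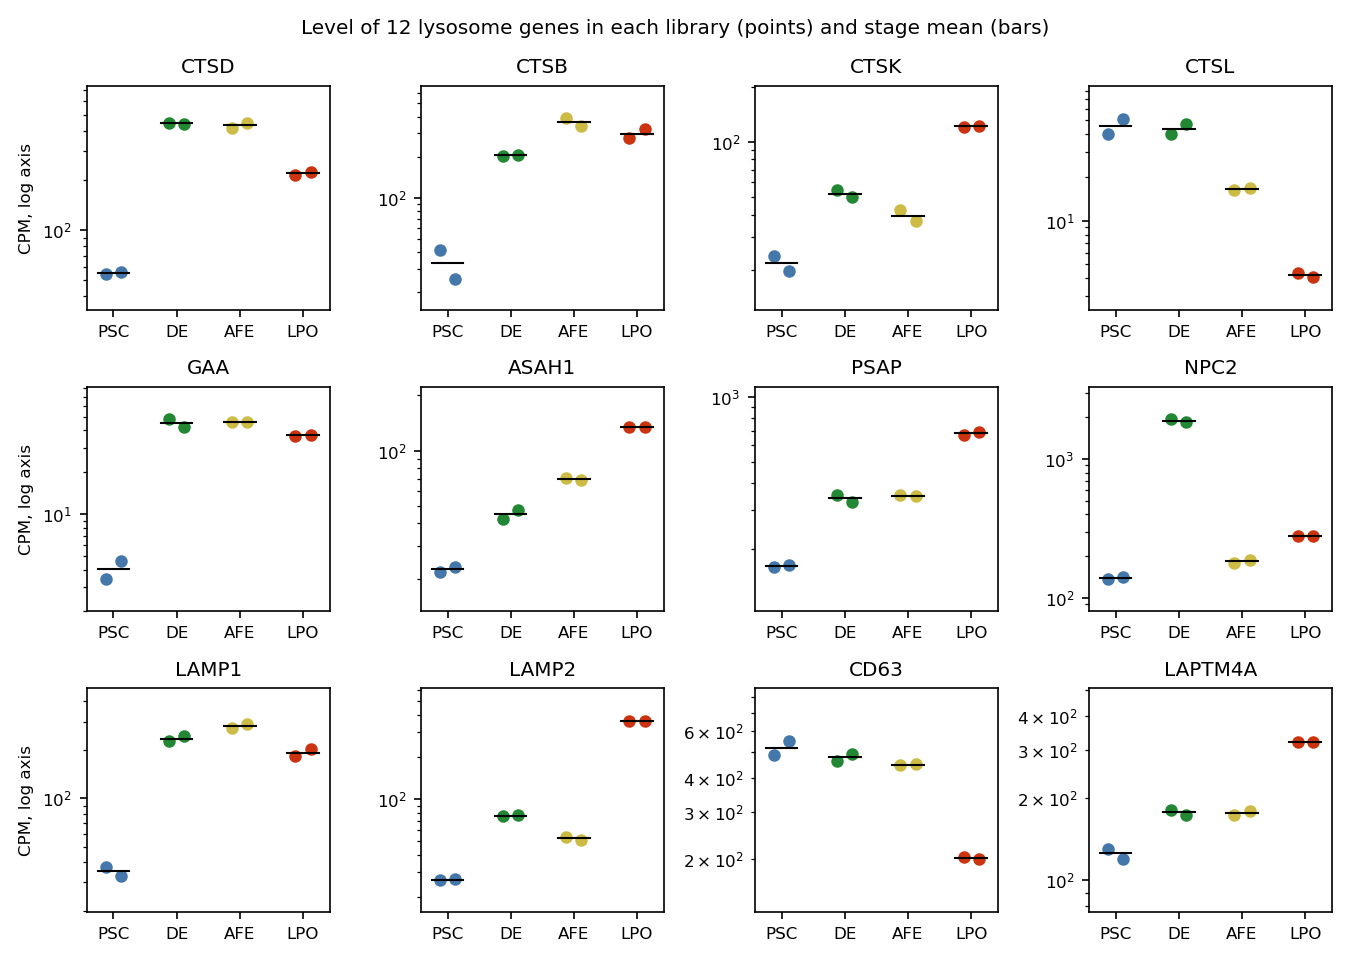
Points give the level (CPM, log axis) of 12 lysosome genes in each of the 8 libraries, and short bars the stage mean, in stage order PSC, DE, AFE and LPO. CTSD, CTSB, GAA and LAMP1 are lowest in PSC, NPC2 is highest in DE, and CTSK, ASAH1, PSAP, LAMP2 and LAPTM4A are highest in LPO.

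Glycosidases cleave sugar chains, and in DE against PSC 13 of 20 rose (background 30.8%) and 1 fell (background 23.0%). Acid alpha-glucosidase (GAA), which degrades glycogen, had 3.42 and 4.63 CPM in PSC, 47.9 and 42.1 CPM in DE, 45.9 and 46.3 CPM in AFE and 36.6 and 37.3 CPM in LPO. All 6 later libraries lay above both PSC libraries, and GAA rose 11.2-fold in DE against PSC (log2 fold change 3.49 ± 0.16 SE, edgeR adjusted p = 1.6e-06). Neither later step was called for GAA. Alpha-L-iduronidase (IDUA), which acts on dermatan and heparan sulfate, had 2.38 and 1.75 CPM in PSC, 29.2 and 25.1 CPM in DE, 105 and 118 CPM in AFE and 51.5 and 58.0 CPM in LPO. The 4 stages did not overlap. IDUA rose 13.0-fold in DE against PSC and 4.10-fold in AFE against DE, and fell 2.04-fold in LPO against AFE (edgeR adjusted p = 1.8e-06, 3.6e-05 and 3.3e-04).

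HEXA, the alpha subunit of the enzyme that splits GM2 ganglioside, had 110 and 123 CPM in PSC, 123 and 130 CPM in DE, 134 and 138 CPM in AFE and 93.9 and 100 CPM in LPO. HEXA was called lower in LPO against AFE and against PSC, 1.40-fold and 1.20-fold. With total counts the first call was lost, and the second difference turned positive. The second call (log2 fold change −0.26) was also lost without PSC replicate 2 (−0.18) or LPO replicate 1 (−0.26).

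GM2A, the activator protein that presents GM2 to the enzyme, had 66.0 and 62.1 CPM in PSC, 80.1 and 65.5 CPM in DE, 216 and 211 CPM in AFE and 87.2 and 88.0 CPM in LPO. Both AFE libraries lay above every other library. GM2A rose 2.94-fold in AFE against DE and fell 2.44-fold in LPO against AFE (edgeR adjusted p = 2.6e-05 and 1.5e-05).

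Glycosidases that trim N-linked sugar chains were higher in LPO. Alpha-mannosidase (MAN2B1) had 59.4 and 52.2 CPM in PSC, 98.6 and 86.8 CPM in DE, 119 and 120 CPM in AFE and 244 and 247 CPM in LPO, and was called higher at each of the 3 steps. Its call in AFE against DE (log2 fold change 0.37) was lost without DE replicate 2 (0.26), AFE replicate 1 (0.37) or AFE replicate 2 (0.36). Beta-mannosidase (MANBA) had 2.01 and 3.59 CPM in PSC, 2.89 and 3.17 CPM in DE, 9.89 and 9.07 CPM in AFE and 28.1 and 25.9 CPM in LPO. MANBA rose 3.13-fold in AFE against DE and 2.85-fold in LPO against AFE (edgeR adjusted p = 0.0018 and 9.1e-04). The fucosidases FUCA1 and FUCA2 were 2.57-fold and 2.86-fold higher in LPO against PSC (edgeR adjusted p = 3.4e-06 and 1.8e-05).

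Beta-galactosidase (GLB1), whose activity is used as a marker of senescent cells, had 16.3 and 17.4 CPM in PSC, 76.2 and 79.1 CPM in DE, 42.3 and 44.5 CPM in AFE and 76.6 and 80.5 CPM in LPO. DE and LPO overlapped, and both lay above AFE, which lay above PSC. Alpha-galactosidase (GLA) had 40.8 and 41.5 CPM in LPO, against 23.3 and 23.1 CPM in PSC, with no call in the first 2 steps. GALC, which degrades galactosylceramide, had 5.31 to 11.6 CPM over all libraries and was not called in any comparison. Beta-glucuronidase (GUSB), often used as a reference gene, had 156 to 208 CPM in the later stages, against 129 and 134 CPM in PSC.

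Hyaluronidases split by stage. HYAL1 had 0 and 0 CPM in PSC, 0.657 and 0.631 CPM in DE, 0.343 and 0.1 CPM in AFE and 6.66 and 7.80 CPM in LPO. Against a floor of 3 read pairs per library, HYAL1 was at least 22.1-fold higher in LPO than in PSC (edgeR adjusted p = 8.7e-05). HYAL2, anchored to the cell surface, had 76.8 and 71.2 CPM in PSC, 129 and 135 CPM in DE, 122 and 122 CPM in AFE and 51.3 and 49.7 CPM in LPO, and fell 2.42-fold in LPO against AFE (edgeR adjusted p = 3.2e-06). HYAL4 had at most 1.28 CPM in any library, and HYAL3 overlaps NAA80 on the same strand.

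Sulfatases remove sulfate from glycosaminoglycans and sulfated lipids, and 6 of the 8 genes of the group, SUMF1 included, rose in DE against PSC (background 30.8%). GALNS had 8.23 and 5.85 CPM in PSC, 72.5 and 77.2 CPM in DE, 41.5 and 42.2 CPM in AFE and 38.9 and 40.2 CPM in LPO, a 10.6-fold rise in DE against PSC (log2 fold change 3.40 ± 0.16 SE, edgeR adjusted p = 1.8e-06). The heparan sulfate enzyme SGSH and the dermatan sulfate enzyme ARSB rose 5.22-fold and 6.88-fold in the same comparison (edgeR adjusted p = 9.1e-05 and 1.6e-05). ARSA, which acts on sulfatide, rose 3.48-fold (edgeR adjusted p = 1.3e-05). The smallest of the 6 was SUMF1 (log2 fold change 0.41), whose call was lost with DESeq2's size factors and Wald test (0.25 each) and in 5 of the 8 fits without a library (0.33 to 0.42).

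IDS, the iduronate sulfatase, varied by 1.49-fold between its highest and lowest stage means. The 15 tested genes that the table also places in glycosaminoglycan degradation had 10 higher (background 30.8%) and 2 lower (background 23.0%) in DE against PSC, with a median log2 fold change of 2.21. In LPO against PSC they had 9 higher (background 41.5%) and 3 lower (background 28.8%), with a median of 2.11.

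Among the lipid hydrolases, acid sphingomyelinase and acid ceramidase, which act in sequence on sphingomyelin, stood highest in different stages. SMPD1, the sphingomyelinase, had 10.3 and 7.25 CPM in PSC, 55.2 and 68.9 CPM in DE, 25 and 29.3 CPM in AFE and 16 and 17.7 CPM in LPO. ASAH1, the ceramidase, had 21.8 and 23.1 CPM in PSC, 42.4 and 47.6 CPM in DE, 71.1 and 69.1 CPM in AFE and 135 and 135 CPM in LPO. SMPD1 rose 7.05-fold in DE against PSC and fell 2.29-fold in AFE against DE (edgeR adjusted p = 1.4e-05 and 0.0020), while ASAH1 was called higher at each of the 3 steps and was 6.03-fold higher in LPO against PSC (edgeR adjusted p = 1.6e-07). A ratio within a library does not depend on scaling, and in FPKM the ratio of ASAH1 to SMPD1 was 1.28 and 1.93 in PSC, 0.464 and 0.417 in DE, 1.72 and 1.43 in AFE and 5.11 and 4.61 in LPO. PSC and AFE overlapped in this ratio, DE lay below them and LPO above.

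Lysosomal acid lipase (LIPA), which hydrolyses cholesteryl esters, had 11.2 and 12.7 CPM in PSC, 17.4 and 21.5 CPM in DE, 27.7 and 23.4 CPM in AFE and 35.8 and 35.9 CPM in LPO, and was 3.00-fold higher in LPO against PSC (edgeR adjusted p = 3.4e-05). The palmitoyl thioesterases PPT1 and PPT2 differed in the last stage. PPT1 had 98.7 and 101 CPM in LPO, against 218 and 213 CPM in AFE, and PPT2 had 15.1 and 15.6 CPM in LPO, against 70.6 and 70.2 CPM in AFE. Both fell, by 2.16-fold and 4.59-fold (edgeR adjusted p = 1.9e-05 and 1.6e-06). PLA2G15, the lysosomal phospholipase A2 that acts on surfactant phospholipids in mouse alveolar macrophages, had 7.64 to 17.5 CPM over all libraries and was not called in any comparison.

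Among phosphatases and nucleases, ENTPD4, a nucleotide diphosphatase of the Golgi and lysosome, had 43.3 and 51.8 CPM in PSC, 60.2 and 47.2 CPM in DE, 89.6 and 88.0 CPM in AFE and 300 and 309 CPM in LPO. It rose 3.43-fold in LPO against AFE (log2 fold change 1.78 ± 0.13 SE, edgeR adjusted p = 1.0e-05). DNASE2, the acid DNase, had 35.1 and 35.8 CPM in LPO, against 63.1 and 75.9 CPM in PSC (1.96-fold lower, edgeR adjusted p = 7.8e-05). The acid phosphatase ACP2 stayed between 22.3 and 39.4 CPM, and ACP5, the tartrate-resistant phosphatase of osteoclasts and macrophages, did not exceed 3.39 CPM. ACP5 was not called between the 4 stages, and its lower call in LPO against PSC (edgeR adjusted p = 0.038) was lost with total counts, and without PSC replicate 1 or 2, DE replicate 1 or 2, or LPO replicate 2.

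**Figure D4:**
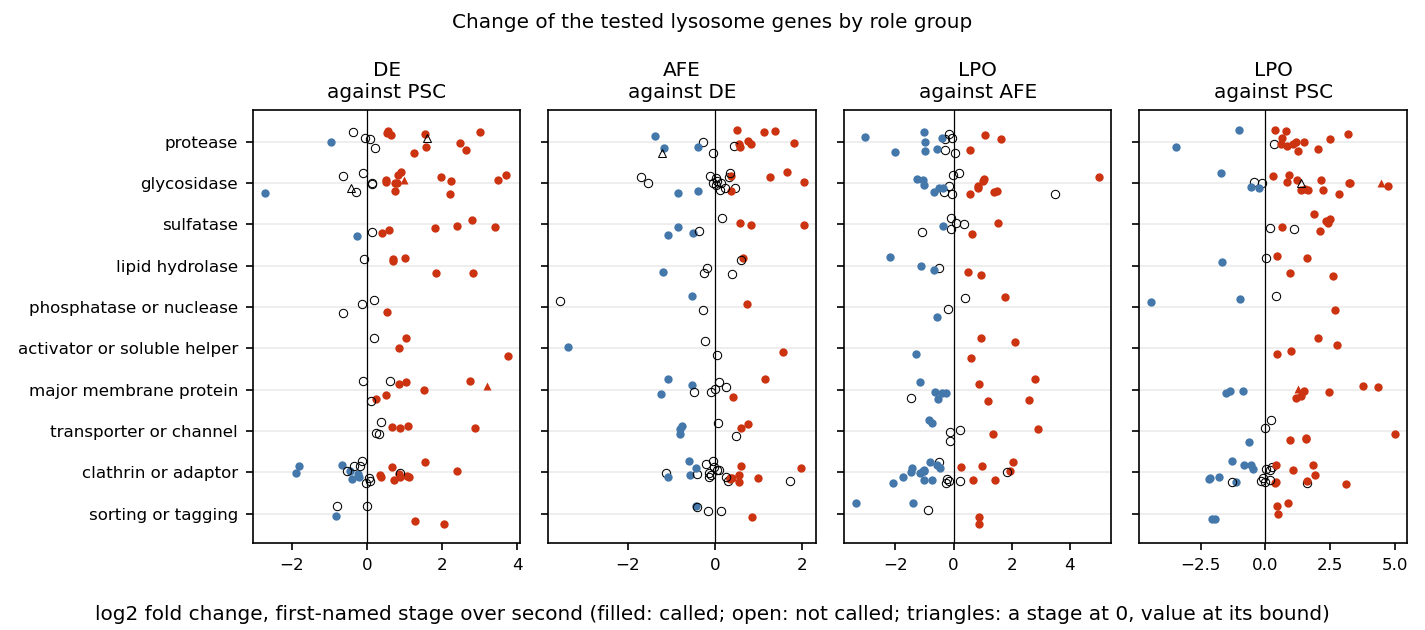
Each point is a tested lysosome gene placed by its log2 fold change (first-named stage over second) within its role group, in 4 comparisons; filled points were called (red higher, blue lower), open points were not, and triangles mark genes at 0 in a stage, drawn at the bound that 3 read pairs per library allow. Most filled points lie to the right in DE against PSC. In LPO against AFE the clathrin and adaptor group has 13 lower (background 29.6%) and 6 higher (background 30.2%) of 25.

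NPC2, the soluble protein that picks up cholesterol in the lysosome, showed a peak in a single stage. It had 137 and 142 CPM in PSC, 1930 and 1861 CPM in DE, 180 and 187 CPM in AFE and 277 and 279 CPM in LPO. Both DE libraries lay about an order of magnitude above every library of the neighbouring stages. NPC2 rose 13.6-fold in DE against PSC (log2 fold change 3.76 ± 0.059 SE, edgeR adjusted p = 2.9e-08) and fell 10.3-fold in AFE against DE (log2 fold change −3.37 ± 0.058 SE, edgeR adjusted p = 1.2e-07). Its membrane partner NPC1, which receives the cholesterol, had 21.1 and 13.6 CPM in PSC, 22.6 and 22.7 CPM in DE, 13.9 and 12.2 CPM in AFE and 33.2 and 33.6 CPM in LPO. NPC1 was highest in LPO and rose 2.56-fold there against AFE (edgeR adjusted p = 5.0e-04). The ratio of NPC2 to NPC1 in FPKM was 21.1 and 34.1 in PSC, 278 and 267 in DE, 42.2 and 49.9 in AFE and 27.2 and 27.0 in LPO. NPC1 overlaps RMC1, whose count was 73.5% of its own.

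Prosaposin (PSAP), the precursor of the saposins that assist sphingolipid breakdown, had 165 and 168 CPM in PSC, 353 and 329 CPM in DE, 354 and 349 CPM in AFE and 673 and 693 CPM in LPO. DE and AFE overlapped, with PSC below and LPO above. PSAP rose 2.05-fold in DE against PSC and 1.94-fold in LPO against AFE (edgeR adjusted p = 4.5e-06 and 4.1e-06).

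LAMP1 and LAMP2, the glycoproteins that cover much of the inner face of the lysosomal membrane, were both higher in DE than in PSC and stood highest in different stages. LAMP1 had 37.6 and 32.7 CPM in PSC, 227 and 243 CPM in DE, 273 and 290 CPM in AFE and 182 and 202 CPM in LPO. LAMP2, also the receptor of chaperone-mediated autophagy, had 26.5 and 26.7 CPM in PSC, 75.4 and 77.2 CPM in DE, 54.0 and 51.4 CPM in AFE and 365 and 365 CPM in LPO. LAMP1 was lowest in PSC and highest in AFE, whereas both LAMP2 libraries of LPO lay above all other LAMP2 values. LAMP1 rose 6.68-fold in DE against PSC (log2 fold change 2.74 ± 0.098 SE, edgeR adjusted p = 6.8e-07), and its lower call in LPO against AFE (1.46-fold) was lost with total counts. LAMP2 rose 2.87-fold in DE against PSC and 6.92-fold in LPO against AFE (edgeR adjusted p = 1.4e-06 and 1.6e-07), and fell 1.45-fold in AFE against DE (edgeR adjusted p = 5.5e-04). The ratio of LAMP2 to LAMP1 in FPKM was 0.162 and 0.188 in PSC, 0.0762 and 0.0731 in DE, 0.0454 and 0.0407 in AFE and 0.458 and 0.413 in LPO, with no overlap between stages.

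CD63, a tetraspanin of late endosomes and secreted vesicles, had the highest mean FPKM of the membrane proteins over the stages, though LAPTM4A exceeded it in LPO (214 against 205 FPKM). It had 488 and 549 CPM in PSC, 465 and 492 CPM in DE, 447 and 450 CPM in AFE and 204 and 200 CPM in LPO. The libraries of PSC and DE overlapped, AFE lay just below them and LPO well below, and CD63 fell 2.22-fold in LPO against AFE (log2 fold change −1.15 ± 0.071 SE, edgeR adjusted p = 4.1e-06). The related proteins LAPTM4A and LAPTM4B crossed over. LAPTM4A had 131 and 120 CPM in PSC, 181 and 173 CPM in DE, 174 and 179 CPM in AFE and 323 and 321 CPM in LPO. LAPTM4B, which regulates sphingolipid and amino acid handling on the lysosome, had 469 and 503 CPM in PSC, 527 and 517 CPM in DE, 220 and 225 CPM in AFE and 164 and 172 CPM in LPO. LAPTM4A rose 1.82-fold in LPO against AFE (edgeR adjusted p = 1.4e-05), and LAPTM4B fell 2.35-fold in AFE against DE (edgeR adjusted p = 8.8e-06). Their FPKM ratio was 0.343 and 0.293 in PSC, 0.424 and 0.412 in DE, 0.974 and 0.980 in AFE and 2.42 and 2.30 in LPO.

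SCARB2, a scavenger receptor of the lysosomal membrane, had 52.9 and 56.2 CPM in PSC, 118 and 107 CPM in DE, 145 and 153 CPM in AFE and 128 and 120 CPM in LPO. It rose 2.07-fold in DE against PSC and 1.32-fold in AFE against DE (edgeR adjusted p = 2.5e-05 and 0.0071), and its direction in LPO against AFE depended on the scaling. The call in AFE against DE (log2 fold change 0.40) was lost without AFE replicate 2 (0.36). CD164, a sialomucin, rose 2.28-fold in LPO against AFE (edgeR adjusted p = 5.1e-06). LITAF, which helps sort proteins to the lysosome, fell 2.1-fold in AFE against DE (edgeR adjusted p = 1.4e-04).

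CD68, the heavily glycosylated membrane protein used as a macrophage marker, had 0.992 and 1.34 CPM in PSC, 1.85 and 1.66 CPM in DE, 4.05 and 3.78 CPM in AFE and 22.4 and 24.8 CPM in LPO. The LPO libraries stood far above the others, and CD68 rose 6.02-fold in LPO against AFE (log2 fold change 2.59 ± 0.21 SE, edgeR adjusted p = 1.6e-05). The 7 macrophage markers in the table summed to 17.0 and 16.3 CPM in LPO, against 18.7 and 24.2 CPM in AFE. In LPO, C1QA was at 0 in both libraries, and PTPRC, CSF1R and TYROBP had at most 0.449 CPM, while AIF1 had 8.79 and 8.91 CPM and SPI1 had 6.22 and 5.89 CPM. The part of macrophages in the CD68 result was not tested beyond these values. LAPTM5, a lysosomal protein of blood cells, had at most 3.82 CPM in the later stages, against 0 and 0 CPM in PSC.

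Transporters and channels were lower in FPKM than the major membrane proteins, with sums of 20.8 and 17.6 FPKM in PSC, 25.7 and 26.8 FPKM in DE, 27.0 and 28.8 FPKM in AFE and 38.5 and 37.1 FPKM in LPO. ABCB9, a peptide transporter, had 0.496 and 0.564 CPM in PSC, 4.22 and 3.57 CPM in DE, 2.35 and 2.13 CPM in AFE and 16.3 and 17.3 CPM in LPO. No stage overlapped another, and ABCB9 was 31.7-fold higher in LPO against PSC (edgeR adjusted p = 9.9e-07). The cystine exporter CTNS and the sialic acid exporter SLC17A5 were 2.96-fold and 2.94-fold higher in LPO against PSC (edgeR adjusted p = 2.0e-05 and 2.5e-04). MCOLN1, the calcium channel of the lysosome, had 13.1 and 11.8 CPM in LPO and 10.9 and 14.5 CPM in PSC, which overlapped. MFSD8 fell 1.69-fold in AFE against DE (log2 fold change −0.76, edgeR adjusted p = 0.0065), a call lost without AFE replicate 2 (−0.70). CLN3 overlaps NUPR1 on the same strand, whose count was 590.5% of its own, and its values are uncertain.

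**Figure D5:**
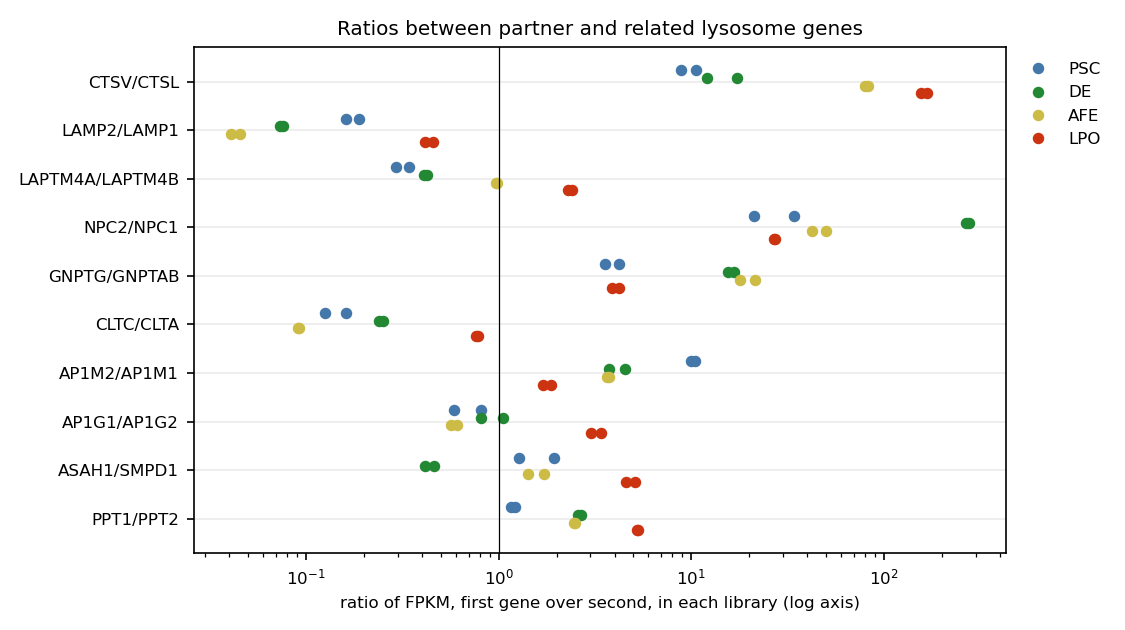
Points give the ratio of FPKM of the first gene over the second (log axis) within each of the 8 libraries for 10 pairs of partner or related lysosome genes, coloured by stage. The LAPTM4A over LAPTM4B ratio is below 1 in PSC, DE and AFE and above 1 in LPO, and the LAMP2 over LAMP1 ratio is highest in LPO (0.458 and 0.413). The pairs were chosen after their values were seen.

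Clathrin and the adaptor complexes AP-1, AP-3 and AP-4 build the vesicles that carry hydrolases and membrane proteins. The heavy chain CLTC had 119 and 104 CPM in PSC, 177 and 175 CPM in DE, 83.7 and 82.0 CPM in AFE and 337 and 342 CPM in LPO. It rose 4.10-fold in LPO against AFE (log2 fold change 2.04 ± 0.078 SE, edgeR adjusted p = 5.2e-07). The light chains went the other way: CLTA had 216 and 224 CPM in LPO, against 454 and 451 CPM in AFE, and CLTB had 30.8 and 35.3 CPM in LPO, against 79.1 and 66.4 CPM in AFE. Both fell, by 2.06-fold and 2.2-fold (edgeR adjusted p = 7.2e-06 and 5.3e-05). The ratio of CLTC to CLTA in FPKM was 0.162 and 0.126 in PSC, 0.251 and 0.239 in DE, 0.0920 and 0.0908 in AFE and 0.780 and 0.763 in LPO. CLTC overlaps PTRH2, whose count was 12.7% of its own.

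AP-1 sorts between the Golgi and endosomes. AP1M2, its mu subunit of epithelia, had 159 and 170 CPM in PSC, 125 and 113 CPM in DE, 157 and 153 CPM in AFE and 36.4 and 36.8 CPM in LPO. It fell 4.24-fold in LPO against AFE (edgeR adjusted p = 5.5e-07), and of the 4 epithelial markers given above, KRT8, KRT18 and EPCAM were lower and CDH1 higher in the same libraries. The part of epithelial cell number in this result was not tested. AP1S2 had 504 and 490 CPM in PSC, 136 and 145 CPM in DE, 548 and 547 CPM in AFE and 204 and 202 CPM in LPO. This sigma subunit fell 3.54-fold in DE against PSC, rose 3.90-fold in AFE against DE and fell 2.70-fold in LPO against AFE (edgeR adjusted p = 4.3e-07, 9.8e-07 and 6.4e-07).

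The gamma subunit AP1G1 had 181 and 178 CPM in LPO, against 88.4 and 93.9 CPM in AFE, while its relative AP1G2 had 21.4 and 23.7 CPM in LPO, against 63.1 and 62.4 CPM in AFE. AP1G1 rose 1.97-fold and AP1G2 fell 2.78-fold (edgeR adjusted p = 1.0e-05 and 2.5e-04), and AP1G2 overlaps THTPA. AP1B1, the beta subunit, rose 2.19-fold in DE against PSC and fell 2.01-fold in LPO against AFE (edgeR adjusted p = 1.8e-04 and 2.6e-04), and the sigma subunit AP1S1 rose 1.51-fold in AFE against DE (log2 fold change 0.59, edgeR adjusted p = 0.010), a call lost without DE replicate 2 (0.42) or AFE replicate 2 (0.48). In AP-3, which serves lysosome-related organelles such as lamellar bodies, AP3B1 rose 2.67-fold and AP3D1 rose 1.59-fold in LPO against AFE (edgeR adjusted p = 2.3e-04 and 4.7e-05), and AP3S2 fell 3.35-fold (edgeR adjusted p = 2.1e-06). AP3M1 disagreed between libraries of a stage, with 55.3 and 5.85 CPM in PSC and 48.9 and 2.73 CPM in AFE, and was not called. GGA1, a monomeric adaptor that binds the mannose 6-phosphate receptors, had 16.7 and 15.1 CPM in PSC, 89.8 and 79.4 CPM in DE, 96.6 and 105 CPM in AFE and 56.7 and 57.6 CPM in LPO, and rose 5.31-fold in DE against PSC (edgeR adjusted p = 1.3e-06).

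The genes that make the mannose 6-phosphate tag changed in LPO. NAGPA, the uncovering enzyme that completes the tag, had 9.87 and 8.20 CPM in PSC, 20.1 and 24.1 CPM in DE, 25 and 23.1 CPM in AFE and 1.88 and 2.81 CPM in LPO. GNPTG, the gamma subunit of the phosphotransferase that starts it, had 22.1 and 18.5 CPM in PSC, 84.0 and 84.2 CPM in DE, 74.5 and 76.6 CPM in AFE and 30.0 and 27.3 CPM in LPO. NAGPA fell 10.3-fold and GNPTG 2.64-fold in LPO against AFE (edgeR adjusted p = 6.8e-06 and 1.2e-05). GNPTAB, which encodes the catalytic subunits, rose 1.83-fold in LPO against AFE (edgeR adjusted p = 7.0e-04), and the ratio of GNPTG to GNPTAB in FPKM was 4.21 and 3.57 in PSC, 15.6 and 16.6 in DE, 17.8 and 21.5 in AFE and 4.21 and 3.88 in LPO. GNPTG overlaps UNKL, whose count was 38.6% of its own.

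Of the sorting receptors, M6PR, the cation-dependent mannose 6-phosphate receptor, had 125 and 152 CPM in PSC, 78.1 and 80.5 CPM in DE, 80.1 and 39.1 CPM in AFE and 41.1 and 24.4 CPM in LPO. AFE spanned a wide range, no single step was called, and LPO was 4.23-fold lower against PSC (edgeR adjusted p = 0.0010). SORT1 (sortilin), which carries prosaposin and acid sphingomyelinase without that tag, had 70.4 and 74.8 CPM in PSC, 43.2 and 38.1 CPM in DE, 70.6 and 76.4 CPM in AFE and 137 and 130 CPM in LPO. PSC and AFE overlapped for SORT1, DE lay below and LPO above. SORT1 rose 1.82-fold in LPO against AFE (edgeR adjusted p = 8.1e-05). The gene without a name in the table, ENSSSCG00000038960, had 14.4 to 24 CPM over all libraries, with a lower call in LPO against AFE that was lost with total counts.

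Genes of the lysosome outside the 107 were read from lists of known components. The MiT/TFE factors switch on many lysosome genes through a shared promoter element when they enter the nucleus. TFEB had 0 and 0 CPM in PSC, 2.97 and 2.65 CPM in DE, 1.63 and 2.05 CPM in AFE and 11.3 and 11.9 CPM in LPO, at least 35.4-fold higher in LPO against PSC (edgeR adjusted p = 3.0e-06). TFE3 had 49.3 and 62.8 CPM in PSC, 59.6 and 56.4 CPM in DE, 51.1 and 48.0 CPM in AFE and 98.4 and 94.3 CPM in LPO, and MITF had 9.43 and 11.9 CPM in LPO, against 0.595 and 0.357 CPM in PSC. All 3 were called higher in LPO against AFE, and messenger RNA says nothing of where the proteins are. Of the 20 tested genes of this list, which includes the mTORC1 arm, 9 rose and 7 fell in LPO against PSC, where the background was 41.5% higher and 28.8% lower.

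Of 22 subunits and helpers of the proton pump, 9 rose (background 41.5%) and 9 fell (background 28.8%) in LPO against PSC. Their median log2 fold change was −0.67, against 0.49 over all genes. ATP6V0D2, a subunit of osteoclasts and macrophages, had 34.2 and 34.0 CPM in PSC, 17.2 and 16.2 CPM in DE, 7.72 and 4.29 CPM in AFE and 0.0998 and 0 CPM in LPO. ATP6AP2, the accessory subunit also called the prorenin receptor, had 264 and 259 CPM in LPO, against 71.3 and 64.6 CPM in PSC. Of 21 tethering and positioning genes, 2 rose (background 30.2%) and 15 were called lower (background 29.6%) in LPO against AFE, where lower calls depended on the scaling (background 21.7% with total counts). Of 27 autophagy genes, 16 rose (background 41.5%) and 5 fell (background 28.8%) in LPO against PSC, with ATG2A 12.7-fold and ULK2 10.6-fold higher (edgeR adjusted p = 1.3e-06 and 6.0e-07). Of 18 retromer and endosome sorting genes, 7 rose and 7 fell in that comparison, with the same background. Of 27 other lysosomal proteins, 17 rose (background 41.5%) and 5 fell (background 28.8%) in LPO against PSC. Progranulin (GRN), which is processed in lysosomes, had 32.2 and 32.4 CPM in PSC, 229 and 237 CPM in DE, 410 and 438 CPM in AFE and 254 and 256 CPM in LPO.

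Of the 107 genes, 33 overlap another gene and 25 of them have a neighbour with 10% or more of their own count. Overlaps not given above include MCOLN1 (same strand, 561% of its count), AP3M1 (296%), CTSA (276%) and SGSH (188%). Others are ACP2 (130%), CTNS (73.8%) and AP3S2 (same strand, 38.5%), and the values of all these genes carry the same limit. The labels describe a stranded library, but no source used here says whether strand was used in counting. Among the 81 tested genes without such a neighbour, 44 rose (background 30.8%) and 7 fell (background 23.0%) in DE against PSC. In AFE against DE, 26 of them rose (background 17.9%) and 18 fell (background 17.4%). In LPO against AFE, 28 rose (background 30.2%) and 31 were called lower (background 29.6%). In LPO against PSC, 52 rose (background 41.5%) and 17 fell (background 28.8%). Within a stage, 93.3% to 96.2% of the 105 tested genes lay within 2-fold between the 2 libraries. AP3M1, AP4S1 and HYAL3 in PSC and AP3M1 and M6PR in AFE differed by 2-fold or more while reaching 1 FPKM.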

How the data were processed

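Messenger RNA was measured in 8 libraries, 2 for each of 4 stages. Groups and replicate numbers came from the sample titles. The table's columns named EPSC and Organoid were matched to the PSC and LPO titles by meaning and by elimination, and all PSC and LPO values rest on that match. The deposited table gives, per gene and library, the authors' estimated count, which was not scaled between libraries, and FPKM as the authors computed it. Per the submitters' processing notes, the tools were HISAT2 2.2.1, StringTie 2.1.6, cutadapt 1.9, edgeR and DESeq2. What each of them made, the genome build and the strand setting are not given in the sources used here. Low counts gathered at multiples of 4, and 1 read pair was therefore taken as 4 counts. The floor of 3 read pairs is 12 counts, 0.150 to 0.357 CPM per library. This floor covers counting error only.

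From the counts, edgeR 4.0.16 (R 4.3.3) fitted all 8 libraries in a single model with TMM scaling (factors 0.901 to 1.27), after filterByExpr kept 19346 genes, and the quasi-likelihood test was run for 4 comparisons and among stages, with Benjamini-Hochberg adjustment over all tested genes. SE is that of the log2 fold change. The code was tested on simulated data. Alternatives were DESeq2 1.42.0 (size factors, Wald test), total counts, limma 3.58.1 on log2(FPKM + 1) or log2(FPKM + 0.1), other filters, counts divided by 4, the replicate number as a block, the compared libraries alone and leaving out each library.

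The genes, role groups and lists were chosen with earlier results of these data known. Described by rule were, in each role group, the 3 highest in FPKM, up to 3 called higher and 3 called lower in each comparison that reached 5 FPKM, genes with no library over 0.5 FPKM and a set of well-known lysosome genes. Other named members, the gene pairs set as ratios and the count of highest stages with total counts were chosen after seeing the data. Gene names came from the table, with 130 symbols filled from a reference table. Some genes of the set are counted in the totals and are not reported by name here.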

Additional observations from a re-analysis of the deposited data

How the results depend on the processing

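Counts of called genes kept within 1.5 times of the value given, under every alternative run, except the following. Some fits without a library passed that limit, for genes lower in DE than in PSC and genes lower in AFE than in DE. Genes lower in DE than in PSC numbered 11, 17 with DESeq2 size factors and 20 with DESeq2's Wald test. Among the alternatives, the share over all genes was computed only for total counts. Genes lower in LPO than in AFE numbered 42, 23 with total counts, 24 with limma on log2(FPKM + 1) and 23 on log2(FPKM + 0.1). Leaving out each library in turn gave 55 to 60 higher and 7 to 12 lower for DE against PSC, 22 to 36 and 12 to 25 for AFE against DE, 27 to 34 and 37 to 46 for LPO against AFE, 56 to 66 and 19 to 21 for LPO against PSC, and 90 to 96 among stages.

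Replicate numbers did not pair the samples: deviations of same-numbered libraries correlated at −0.0136 to 0.0078 over 19346 genes. With the replicate block, 59 genes were higher and 12 lower for DE against PSC, 33 and 20 for AFE against DE, 32 and 43 for LPO against AFE, 63 and 21 for LPO against PSC, and 95 differed among stages.

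Of 3973 values of the named genes under alternatives, 3775 kept direction and call, 177 lost the call and 21 reversed. Reversals were all in comparisons with LPO. Under total counts, limma + 1 and limma + 0.1, the log2 fold change of LPO over AFE became 0.098, 0.10 and 0.10 for CTSH, 0.13, 0.14 and 0.14 for GUSB, 0.081, 0.087 and 0.088 for LAPTM4B, 0.14, 0.14 and 0.15 for SUMF1 and 0.23, 0.22 and 0.23 for SCARB2, which also reversed to 0.011 with the filter of 5 FPKM. HEXA became 0.0054 and 0.0056 under limma, and 0.16, 0.14 and 0.15 for LPO over PSC. The cause was not tested. Depth limits genes near the floor, such as HYAL4 and CTSW, and 2 libraries a stage limit the rest.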
